A study of Homo sapiens with 25 samples.

Results

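The glucocorticoid receptor is encoded by NR3C1, and 9 genes that it is known to induce are FKBP5, TSC22D3, PER1, KLF9, DUSP1, SGK1, ZFP36, ERRFI1 and CEBPD. These 10 genes, of 59427 gene names measured, were followed by RNA sequencing in 25 libraries of A549 and NCI-H460. The 9 targets were listed from their known function, with earlier results of these data known. The set was chosen by the TPM values of NR3C1, which were low with 1 antisense oligonucleotide (ASO), candidate 240 ASO3. The NR3C1 values with that ASO are therefore given as a description with no test. The question was whether the RNA of the targets moves with the RNA of the receptor. Receptor protein and activity were not measured.

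A549 (adenocarcinoma) and NCI-H460 (large cell carcinoma) are established human lines of non-small cell lung cancer. All cells were transfected with 25 nM of an ASO, a short synthetic strand that pairs with a chosen RNA, and were taken 24 h later. Each line has 5 groups: a neutral control ASO (Control A from Qiagen), ASO3 and ASO5 against candidate 42, and ASO1 and ASO3 against candidate 240, where both candidates are long noncoding RNAs. There are 3 libraries a group for A549, numbered 3 to 5 in the labels, and 2 for NCI-H460, numbered 1 and 2. No glucocorticoid is named in the labels for any group, and the labels do not say whether replicates were separate cultures, so p-values measure only the spread between these libraries.

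The glucocorticoid receptor is a steroid-activated transcription factor. Without hormone it is held in the cytoplasm by HSP90 and its cochaperones. With cortisol or a synthetic glucocorticoid it enters the nucleus, binds palindromic response elements mostly far from start sites, and recruits coactivators. In lung epithelial cells it is known for inducing feedback and anti-inflammatory genes and for restraining cytokine genes. Most of its targets also answer to other signals, such as cAMP, MAP kinases and stress.

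Levels are in TPM, a share of transcripts that accounts for their length, and had been rescaled between libraries. Fold changes are differences of log2(TPM + 0.5) with their standard errors (SE), tested with limma, and a gene was called at a Benjamini-Hochberg adjusted p under 0.05 over all genes tested. All 10 members passed the filter on low values in both lines. In bulk RNA, fewer cells of a kind and less RNA per cell cannot be told apart.

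The labels do not give the gene names of the candidates, so the levels of the RNAs aimed at are not analysed here. Some libraries stood apart. On the first principal component of A549, which carried 24.6% of the variance, candidate 240 ASO3 replicate 3 lay at 71.9 and the other 14 libraries between -25.5 and 20.9. In NCI-H460, where it carried 48.2%, the candidate 42 ASO3 libraries lay at 72.2 and 38.7 and the other 8 between -28.5 and 3.1. A549 control ASO replicate 5 was the highest control for NR3C1, TSC22D3, ERRFI1, KLF9, DUSP1 and SGK1, and values without it are given where they differ clearly. For NR3C1 in A549, the log2 fold change without it was -2.94 with candidate 240 ASO3 and 0.24 with candidate 42 ASO3. With it these were -3.18 and 0.00. The summed level of 8 epithelial markers was 6470 to 10300 TPM in A549 and 2730 to 4310 TPM in NCI-H460, but EPCAM (at most 0.929 TPM) and CDH1 (at most 0.403 TPM) were nearly absent in NCI-H460. Of 8 leukocyte markers, CD3E and MS4A1 were at 0 in all libraries and PTPRC reached at most 0.0158 TPM, while CD14 and CD68, which made up nearly all of the sum, were present in both lines. That sum was 35.8 to 40.7 TPM with control ASO in A549, 81.8 to 100 TPM with candidate 240 ASO3 and 58 to 75.4 TPM with candidate 42 ASO3. In NCI-H460 it was 32.9 to 44.7, 59.6 to 61.4 and 55 to 69 TPM in the same order, so it was higher in both lines with candidate 240 ASO3 and candidate 42 ASO3, and its part in the results was not tested. The epithelial sum in A549 was 8710 to 10100 TPM with control ASO and lower with candidate 42 ASO3 (6720 to 8070 TPM). Candidate 240 ASO3 gave 6470 to 8960 TPM there, overlapping control. In NCI-H460 the epithelial sum was 3260 to 3340 TPM with control ASO and 2730 to 3740 TPM with candidate 42 ASO3. It was higher there with candidate 240 ASO3 (4160 to 4310 TPM). Endothelial markers summed to at most 1.92 TPM and fibroblast markers to 7.49 to 19.8 TPM.

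NR3C1 (hg38 chr5:143277931-143435512, minus strand) was the member with the widest range. In A549 its highest library was 24.4 times its lowest, against 1.94 to 3.42 times for the 9 targets. In NCI-H460 these ratios were 5.26 for NR3C1 and 1.35 to 2.75 for the targets.

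In A549, NR3C1 stood at 16.1, 29.8 and 36.4 TPM in control ASO replicates 3, 4 and 5. With candidate 240 ASO3 it stood at 1.49, 3.52 and 2.61 TPM in the same order. Every candidate 240 ASO3 library was thus far below every other A549 library. The group mean was 9.27% of the control mean, a log2 fold change of -3.18 (SE 0.32; -2.90 to -3.51 over all alternatives, which leave out each library in turn among others). The other ASO against the same candidate, ASO1, left 22.0, 31.6 and 34.1 TPM, and candidate 42 ASO3 and ASO5 left 20.1 to 29.6 TPM and 18.6 to 30.6 TPM. In order of mean level, candidate 240 ASO1 (29.2 ± 6.4 TPM, SD, n = 3), control ASO (27.4 ± 10.3), candidate 42 ASO3 (26.4 ± 5.5) and candidate 42 ASO5 (24.5 ± 6.0) overlapped, and candidate 240 ASO3 (2.54 ± 1.02) stood alone at the bottom. Replicate 3 was the lowest library of NR3C1 in all 5 A549 groups.

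In NCI-H460, NR3C1 was already lower with control ASO, at 8.66 and 8.86 TPM. With candidate 240 ASO3 it stood at 2.28 and 1.69 TPM, which is 22.6% of the control mean and a log2 fold change of -1.91 (SE 0.22). Candidate 42 ASO3 gave 3.04 and 4.93 TPM, the next lowest group. Candidate 42 ASO5 (6.76 and 8.59 TPM) and candidate 240 ASO1 (6.44 and 7.24 TPM) overlapped each other and lay below both control libraries. Neither difference was called (limma, adjusted p = 0.74 and 0.927), and 25.4% and 24.7% of all genes were likewise lower without overlap. The 3 upper groups therefore had no called difference from control, and the neighbours candidate 42 ASO3 and candidate 240 ASO3 did not overlap but were not tested against each other.

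**Figure D1:**
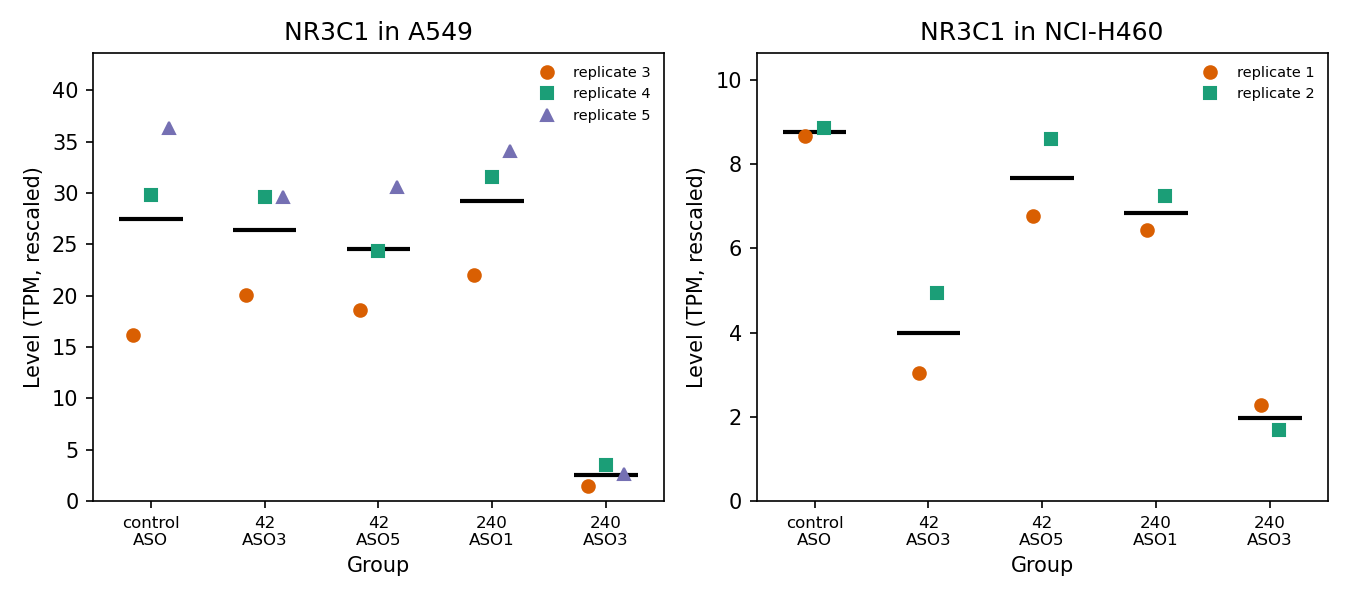
NR3C1 level in TPM (y axis, separate scale for each line) in the 5 groups of A549 (left) and NCI-H460 (right). Points are libraries, marked by replicate number, and bars are group means; the candidate 240 ASO3 libraries lie between 1.49 and 3.52 TPM in A549 and at 2.28 and 1.69 TPM in NCI-H460, below all other libraries of their line.

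With candidate 240 ASO3 in A549, 0 of the 9 targets passed the threshold, where 13.8% of all genes tested did (6% higher and 7.82% lower, limma, adjusted p under 0.05). That fit did not pair the libraries, and 2 targets had an unadjusted p under 0.05. Replicate numbers do pair the libraries of this comparison. With them as a block in the fit, CEBPD was called lower (limma, adjusted p = 0.0365), where 3696 of 14740 genes were called. The median log2 fold change of the targets was 0.13, beside -0.01 for all genes. PER1 and SGK1 were higher in all 3 libraries than in all controls and CEBPD was lower in all 3, while the other 6 targets overlapped; 25.5% of all genes did not overlap, 12.2% higher and 13.2% lower. Because this comparison also gave the NR3C1 values that chose the set, nothing further is read from these counts.

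FKBP5 (chr6:35573585-35728583, minus) encodes an HSP90 cochaperone that lowers the receptor's affinity for hormone and is among its most used readouts. It stood at 9.81, 13.9 and 12.5 TPM with control ASO and 7.21, 11.7 and 11.7 TPM with candidate 240 ASO3 in A549. The groups overlapped, with a log2 fold change of -0.25 (SE 0.18, 95% interval -0.65 to 0.14, adjusted p = 0.431). In NCI-H460 it stood at 15.3 and 16.5 TPM against 14.6 and 13.2 TPM, lower in both libraries but by -0.19 (SE 0.12, interval -0.45 to 0.07, adjusted p = 0.345).

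PER1 (chr17:8140472-8156506, minus), a repressor of the circadian clock, was higher with candidate 240 ASO3. In A549 its level was 7.26, 8.18 and 5.55 TPM with control ASO and 9.40, 12.0 and 8.65 TPM with the ASO, with no overlap. The log2 fold change of 0.49 (SE 0.22, interval 0.03 to 0.96) did not pass the threshold (adjusted p = 0.159). In NCI-H460, PER1 rose from 6.89 and 5.11 TPM to 10.4 and 13.6 TPM, by 0.95 (SE 0.22, adjusted p = 0.0433), in a comparison where 5.66% of genes were called (2.65% higher, 3.01% lower). It was the only target called there. Without overlap between the groups, 3 targets were higher and 2 lower in NCI-H460, beside 60.6% of all genes (28% higher, 32.5% lower). That call was lost when any of the 4 libraries was left out (adjusted p = 0.0675 to 0.267), and was also lost in a fit with the replicate number as a block (adjusted p = 0.0537).

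CEBPD (chr8:47736913-47738164, minus), a transcription factor of the acute phase response, went the other way in A549. It stood at 72.3, 80.8 and 70.8 TPM with control ASO and at 45.1, 62.4 and 60.1 TPM with candidate 240 ASO3, so all 3 libraries lay below all controls. The log2 fold change of -0.43 (SE 0.14) had an adjusted p of 0.053, just short of the threshold. It passed with the replicate block (adjusted p = 0.0365), where replicate numbers pair the libraries, and without candidate 240 ASO3 replicate 4 (adjusted p = 0.0427), and was at -0.28 (adjusted p = 0.159) without the outlying replicate 3. In NCI-H460 it stood at 36.4 and 31.8 TPM against 35.9 and 38.7 TPM, overlapping (0.13, SE 0.12, adjusted p = 0.546).

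TSC22D3 (chrX:107713221-107777342, minus), known as GILZ, is an anti-inflammatory leucine zipper protein. Its A549 controls stood at 18.8, 19.0 and 49.9 TPM, with replicate 5 far above the others, and candidate 240 ASO3 gave 32.2, 27.8 and 26.6 TPM. With all controls the log2 fold change was 0.13 (SE 0.27, adjusted p = 0.817). Without control replicate 5 it was 0.59 (adjusted p = 0.00841), the 1 target whose call in this comparison turned on that library. In NCI-H460, 29.2 TPM in both controls compared with 32.8 and 29.7 TPM (0.09, SE 0.09, adjusted p = 0.565).

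SGK1 (chr6:134169246-134318112, minus), a kinase that regulates ion transport, was above all controls with candidate 240 ASO3 in both lines without passing the threshold. It stood at 14.3, 12.9 and 14.7 TPM against 18.6, 14.8 and 15.6 TPM in A549 (0.22, SE 0.15, adjusted p = 0.407), and at 19.0 and 19.4 TPM against 23.7 TPM in both libraries of NCI-H460 (0.30, SE 0.10, adjusted p = 0.108). ERRFI1 (chr1:8004404-8026309, minus), a feedback inhibitor of the EGF receptor, was below both controls in NCI-H460, at 37.4 and 35.2 TPM against 30.8 and 26.8 TPM (-0.33, SE 0.12, adjusted p = 0.129). In A549 its controls spread from 38.0 to 114.5 TPM, with replicate 5 at the top, and all 3 candidate 240 ASO3 libraries (45.1 to 60.2 TPM) lay inside that range (-0.12, adjusted p = 0.859; 0.35, adjusted p = 0.218, without replicate 5).

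The remaining targets overlapped their controls with candidate 240 ASO3 in both lines. KLF9 (chr9:70384597-70414624, minus), a Krüppel-like repressor, was low throughout, at 1.18 to 4.04 TPM in A549, and changed by 0.17 and 0.08 in A549 and NCI-H460 (adjusted p = 0.829 and 0.838). DUSP1 (chr5:172768096-172771195, minus), a phosphatase that switches off MAP kinases, was the most abundant member and changed by 0.26 and 0.01 (adjusted p = 0.585 and 0.966). ZFP36 (chr19:39406847-39409412, plus), which marks cytokine mRNAs for decay, changed by 0.02 and 0.08 (adjusted p = 0.972 and 0.775). The A549 intervals were wide, -0.61 to 0.95 for KLF9 and -0.29 to 0.81 for DUSP1. Control replicate 5 was the highest A549 control for both (4.04 TPM for KLF9 and 248.5 TPM for DUSP1), and without it the changes were 0.44 and 0.53 (adjusted p = 0.562 and 0.215).

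**Figure D2:**
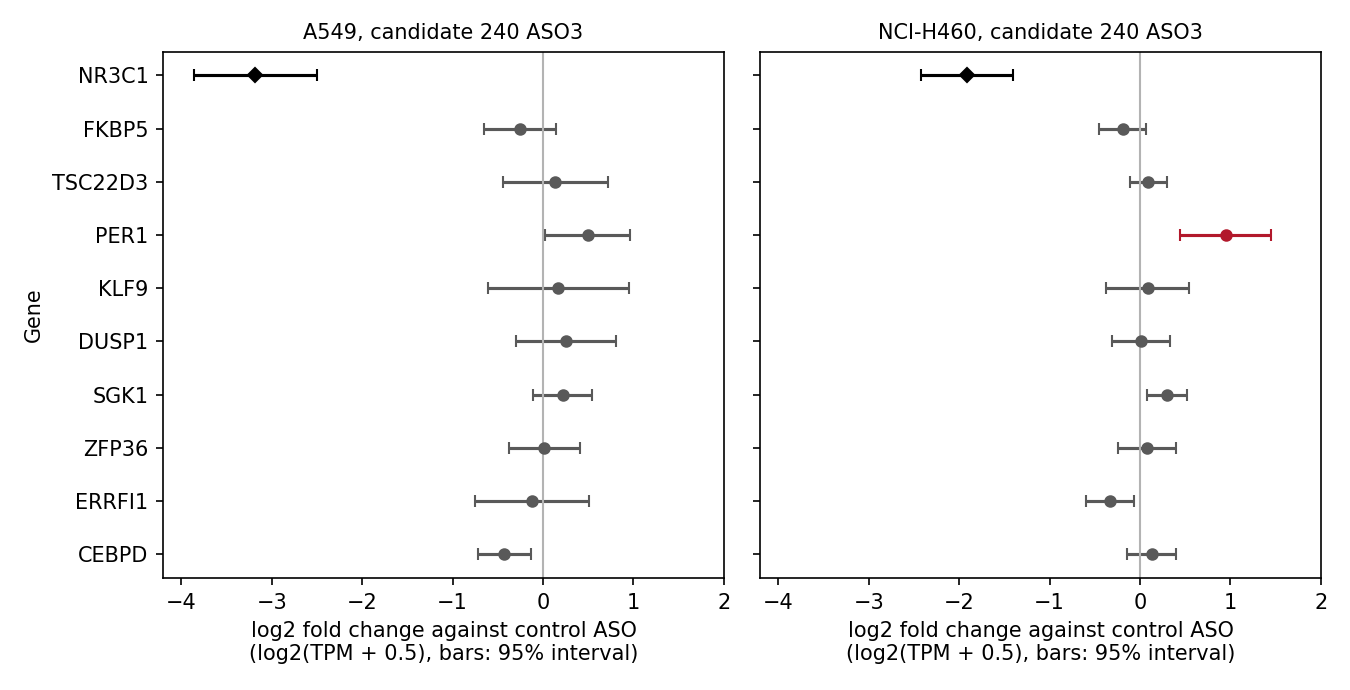
Log2 fold change of each member with candidate 240 ASO3 against control ASO (x axis, 95% intervals) in A549 (left) and NCI-H460 (right). NR3C1 is a black diamond, not tested, at -3.18 and -1.91; the targets lie between -0.43 and 0.95, and PER1 in NCI-H460, in red, is the only one past the threshold.

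In the authors' deposited tables for this ASO, no target was under a q-value of 0.05 in either line. Of all genes there, 2180 of 18717 were under it in A549 and 1308 of 18930 in NCI-H460. In the authors' deposited table for A549, NR3C1 had a log2 fold change of -3.42 and CEBPD of -0.40 (q = 0.0561). In the authors' deposited table for NCI-H460, NR3C1 had -2.13 and PER1 1.01 (q = 0.0783).

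Both ASOs against candidate 240 were also set against each other. ASO1 against control gave 0 called genes in either line (limma; 267 genes in A549 and 493 in NCI-H460 had an unadjusted p under 0.05), and so no member. In A549, PER1 was higher with ASO3 than with ASO1, at 9.40, 12.0 and 8.65 TPM against 4.03, 3.75 and 4.93 TPM, without overlap. The difference was 1.15 (SE 0.22, adjusted p = 0.0026), the only target called where 16.7% of genes were (7.25% higher, 9.48% lower; 15.8% were higher and 17.1% lower without overlap). It was called under all 15 alternatives. PER1 with ASO1 lay below all controls (-0.66, adjusted p = 1), where 5.25% of genes did not overlap (2.82% higher, 2.43% lower). Its distance from control was thus -0.66 with ASO1 and 0.49 with ASO3. With the replicate block, DUSP1 was also called (0.55, adjusted p = 0.042). In NCI-H460 no target was called between ASO3 and ASO1, where 2.92% of genes were (limma; 1 member had an unadjusted p under 0.05). SGK1 (0.30, interval 0.08 to 0.53, adjusted p = 0.159), PER1 (0.43, interval -0.07 to 0.93, adjusted p = 0.4) and KLF9 (0.28, adjusted p = 0.582) were higher without overlap, as were 23.6% of genes.

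The promoters of the members, several of which moved, were read for response elements. RefSeq promoters (GRCh38.p14) were matched for 9 of 10 members in 21 windows, of which NR3C1 has 7, and the 250 bases before each start were searched on both strands for 7 patterns. The glucocorticoid response element, an inverted repeat of its arm TGTTCT with 3 free bases between, was in 0 of 21 windows (0.00285% of all 35116 windows). A looser form of it, which drops the outermost base at each end, keeps the next and frees the one after it, was in 0 (0.327% of all), and the arm alone, which the full form contains, in 0 (12.4% of all). The cAMP response element, TGAC followed by its reverse complement, was in the DUSP1 window (1.65% of all), and the E-box CACGTG in those of DUSP1, FKBP5 and PER1 (6.34% of all). The short cAMP element TGACG, contained in the full one, was in 5 windows of DUSP1, NR3C1 and TSC22D3 (21.2% of all), and the serum response element core in none (1.16% of all). A match is only a description of these letters.

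PER1 is printed because it was the target called with candidate 240 ASO3 in NCI-H460, and DUSP1 because it alone holds the cAMP element; both were picked after values and matches were seen. Capitals mark the cAMP element and the E-box, 5′ to 3′ on the gene's strand.
PER1, GRCh38.p14 chr17:8152405-8152654, minus strand: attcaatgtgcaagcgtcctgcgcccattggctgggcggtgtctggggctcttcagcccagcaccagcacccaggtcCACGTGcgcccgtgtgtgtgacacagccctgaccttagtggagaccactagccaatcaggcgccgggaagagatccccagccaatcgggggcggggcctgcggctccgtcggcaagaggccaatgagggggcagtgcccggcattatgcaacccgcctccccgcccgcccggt
DUSP1, GRCh38.p14 chr5:172771196-172771445, minus strand: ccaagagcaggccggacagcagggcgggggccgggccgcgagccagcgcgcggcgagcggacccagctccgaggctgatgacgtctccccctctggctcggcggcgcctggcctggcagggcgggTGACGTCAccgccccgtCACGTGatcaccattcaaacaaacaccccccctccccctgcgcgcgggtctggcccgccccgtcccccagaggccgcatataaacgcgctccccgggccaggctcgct
The PER1 E-box begins 173 bases before the start, and in DUSP1 the cAMP element begins 125 and the E-box 108 bases before it.

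With candidate 42 ASO3, 3 members were called in A549 and 6 in NCI-H460. In A549 NR3C1 was close to control (0.00, SE 0.32, 95% interval -0.68 to 0.68, adjusted p = 0.999), and the 3 called were targets, where 10.1% of genes were called (3.43% higher, 6.63% lower) and 27.6% did not overlap. SGK1 rose to 24.3, 23.0 and 24.0 TPM, above all controls (0.75, SE 0.15, adjusted p = 0.00664). ZFP36 rose from 48.0, 37.3 and 34.9 TPM to 85.6, 64.1 and 58.5 TPM (0.78, SE 0.18, adjusted p = 0.0143). CEBPD fell to 51.3, 38.8 and 51.1 TPM, below all controls (-0.67, SE 0.14, adjusted p = 0.00671). The ZFP36 call was lost without candidate 42 ASO3 replicate 3, control replicate 4 or control replicate 5 (adjusted p = 0.06, 0.0527 and 0.0608), and TSC22D3 was called without control replicate 5 (0.58, adjusted p = 0.0133).

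With candidate 42 ASO5 in A549, CEBPD fell to 53.4, 47.7 and 47.5 TPM (-0.58, SE 0.14, adjusted p = 0.0305), the only member called among 3.82% of genes (1.42% higher, 2.4% lower; 22.2% did not overlap), and that call was lost when any 1 of the 6 libraries was left out (adjusted p = 0.053 to 0.118). Both candidate 42 comparisons use the same controls. Set directly against ASO3, ASO5 had lower SGK1 (-0.62, SE 0.15, adjusted p = 0.0192) and lower ZFP36 (-0.77, SE 0.18, adjusted p = 0.015), where 10.7% of genes differed (6.02% higher, 4.63% lower). PER1 was higher without overlap, as were 18.4% of genes (0.51, adjusted p = 0.16), and CEBPD did not differ detectably (0.08, interval -0.21 to 0.38). SGK1 lost its call there without any 1 of the 3 ASO3 libraries or without ASO5 replicate 4 or 5 (adjusted p = 0.0511 to 0.0882), and ZFP36 without ASO3 replicate 3 or ASO5 replicate 4 or 5 (adjusted p = 0.0607 to 0.0642).

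In NCI-H460, NR3C1 itself was lower with candidate 42 ASO3, and 6 of 10 members were called, in a comparison where 46% of genes were called (13.2% higher, 32.8% lower) and 74.8% did not overlap (25.7% higher, 49.1% lower). NR3C1 fell from 8.66 and 8.86 TPM to 3.04 and 4.93 TPM (-1.08, SE 0.22, adjusted p = 0.005). FKBP5 fell from 15.3 and 16.5 TPM to 8.45 and 9.72 TPM (-0.78, SE 0.12, adjusted p = 0.00112). KLF9 (-0.77, SE 0.20, adjusted p = 0.0142) and ERRFI1 (-0.71, SE 0.12, adjusted p = 0.00172) fell without overlap too. PER1 rose to 11.1 and 14.1 TPM (1.01, SE 0.22, adjusted p = 0.00623) and TSC22D3 to 35.3 and 34.4 TPM (0.25, SE 0.09, adjusted p = 0.0471). Of the 9 targets 3 fell and 2 rose, shares close to those of all genes called lower and higher in this comparison. The authors' deposited table for this comparison had all 10 members under a q-value of 0.05, as it had 9192 of 18632 genes.

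The balance of higher and lower genes in this comparison depended on the scaling. The median of all genes was -0.20 as deposited, 0.01 with median-of-ratios scaling and -0.34 with each library scaled to the same sum, and the share of called genes that were higher was 28.7%, 50.8% and 18.1%. NR3C1 (-0.88 to -1.21), FKBP5 (-0.56 to -0.92), ERRFI1 (-0.49 to -0.87), KLF9 (-0.59 to -0.88) and PER1 (0.86 to 1.23) kept direction and call under these scalings. TSC22D3 lost its call with the equal sums (0.10, adjusted p = 0.489), and DUSP1 (0.60, adjusted p = 0.0133) and CEBPD (0.43, adjusted p = 0.0288) were called with median-of-ratios scaling. Leaving out candidate 42 ASO3 replicate 1 or either control ended the calls of KLF9 (adjusted p = 0.0607 to 0.0735) and TSC22D3 (adjusted p = 0.107 to 0.164), and leaving out control replicate 2 that of PER1 (adjusted p = 0.0521).

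Candidate 42 ASO5 in NCI-H460 called 0 members among 0.508% of genes (limma; 2 members and 2093 genes had an unadjusted p under 0.05). PER1 was again above both controls, at 11.4 and 9.27 TPM (0.74, SE 0.22, adjusted p = 0.177), where 54.6% of genes did not overlap and 29.1% were higher. In all, the lowest PER1 library of any candidate ASO in NCI-H460 (7.39 TPM, candidate 240 ASO1) exceeded the highest control (6.89 TPM). All 4 comparisons share those 2 controls, and in each of them 22.1% to 29.1% of all genes were higher without overlap. How many genes were so in all 4 was not counted. Against ASO3, ASO5 had higher NR3C1 (0.89, adjusted p = 0.0162), FKBP5 (0.72, adjusted p = 0.00267), ERRFI1 (0.61, adjusted p = 0.00546) and KLF9 (0.62, adjusted p = 0.044) and lower TSC22D3 (-0.46, adjusted p = 0.00561), where 33.3% of genes differed. Of those, 83.1% were higher as deposited and 52.6% with median-of-ratios scaling, under which KLF9 lost its call (0.44, adjusted p = 0.119) and the other 4 kept theirs. The NR3C1 and KLF9 calls there were lost without ASO3 replicate 1 or ASO5 replicate 2 (adjusted p = 0.0853 and 0.112 for NR3C1, 0.162 and 0.163 for KLF9), KLF9 also without ASO5 replicate 1 (adjusted p = 0.125).

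**Figure D3:**
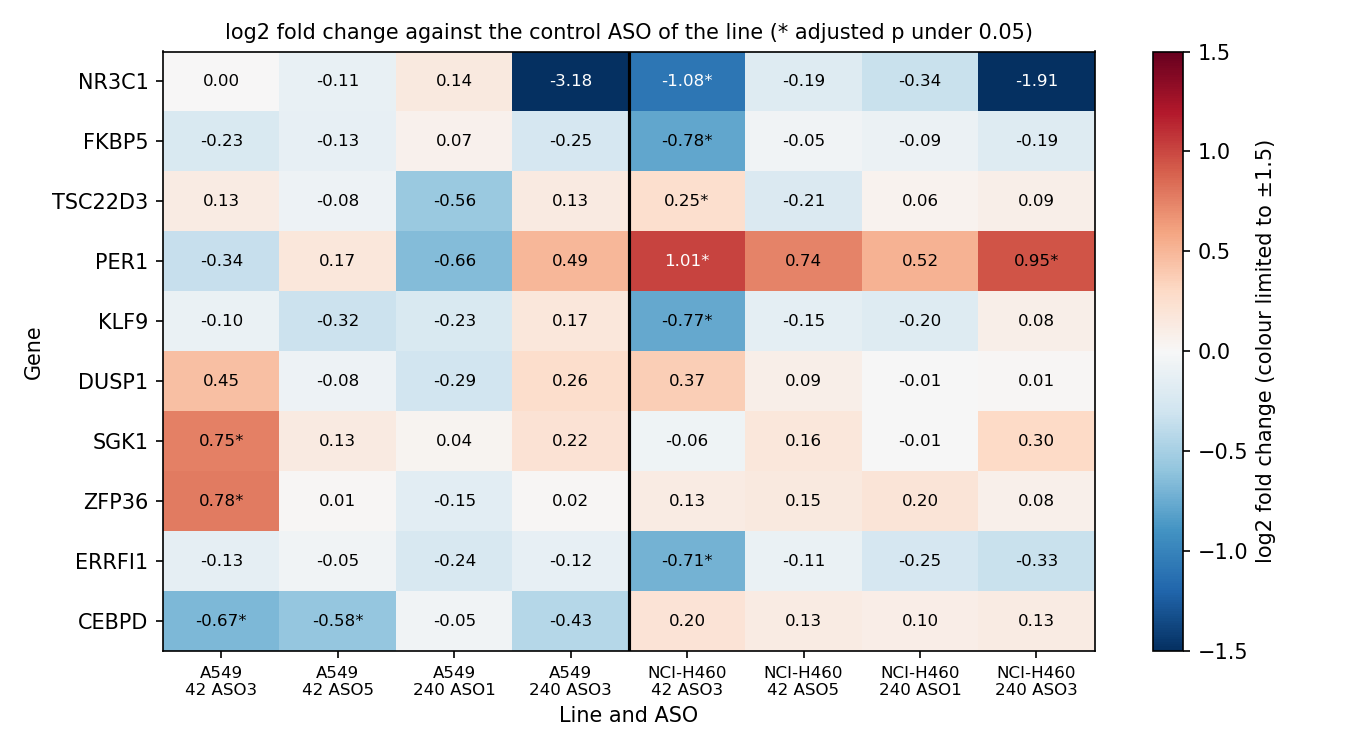
Log2 fold change of the 10 members (rows) against the control ASO of the line for 4 ASOs in A549 (left of the line) and NCI-H460 (right); stars mark an adjusted p under 0.05, and NR3C1 with candidate 240 ASO3 was not tested. PER1 is positive in all 4 NCI-H460 columns and CEBPD negative in all 4 A549 columns, from -0.05 to -0.67.

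The lines differed in their response to candidate 42 ASO3 for 3 members, tested as an interaction over all 25 libraries in which 19.7% of genes were called. The response of PER1 was lower in A549 than in NCI-H460 by -1.35 (SE 0.34, adjusted p = 0.0134), from -0.34 against 1.01. That of SGK1 was higher by 0.81 (SE 0.21, adjusted p = 0.0144), and that of CEBPD lower by -0.87 (SE 0.20, adjusted p = 0.00868). The share of called genes with the higher response in A549 was 78.6% as deposited and 46.7% with median-of-ratios scaling, under which the SGK1 difference was 0.55 (adjusted p = 0.0913). All 3 calls were lost without NCI-H460 candidate 42 ASO3 replicate 1 or control replicate 2, where the genes called fell from 2909 to 275 and 761. For NR3C1 the difference of 1.08 (SE 0.46) missed the threshold (adjusted p = 0.0971), and passed it without A549 control replicate 5 (1.32, adjusted p = 0.0455) and with the replicate block (adjusted p = 0.00439). No target differed between the lines in its response to candidate 240 ASO3 (1.21% of genes called), the smallest adjusted p being that of CEBPD (-0.55, adjusted p = 0.233).

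**Figure D4:**
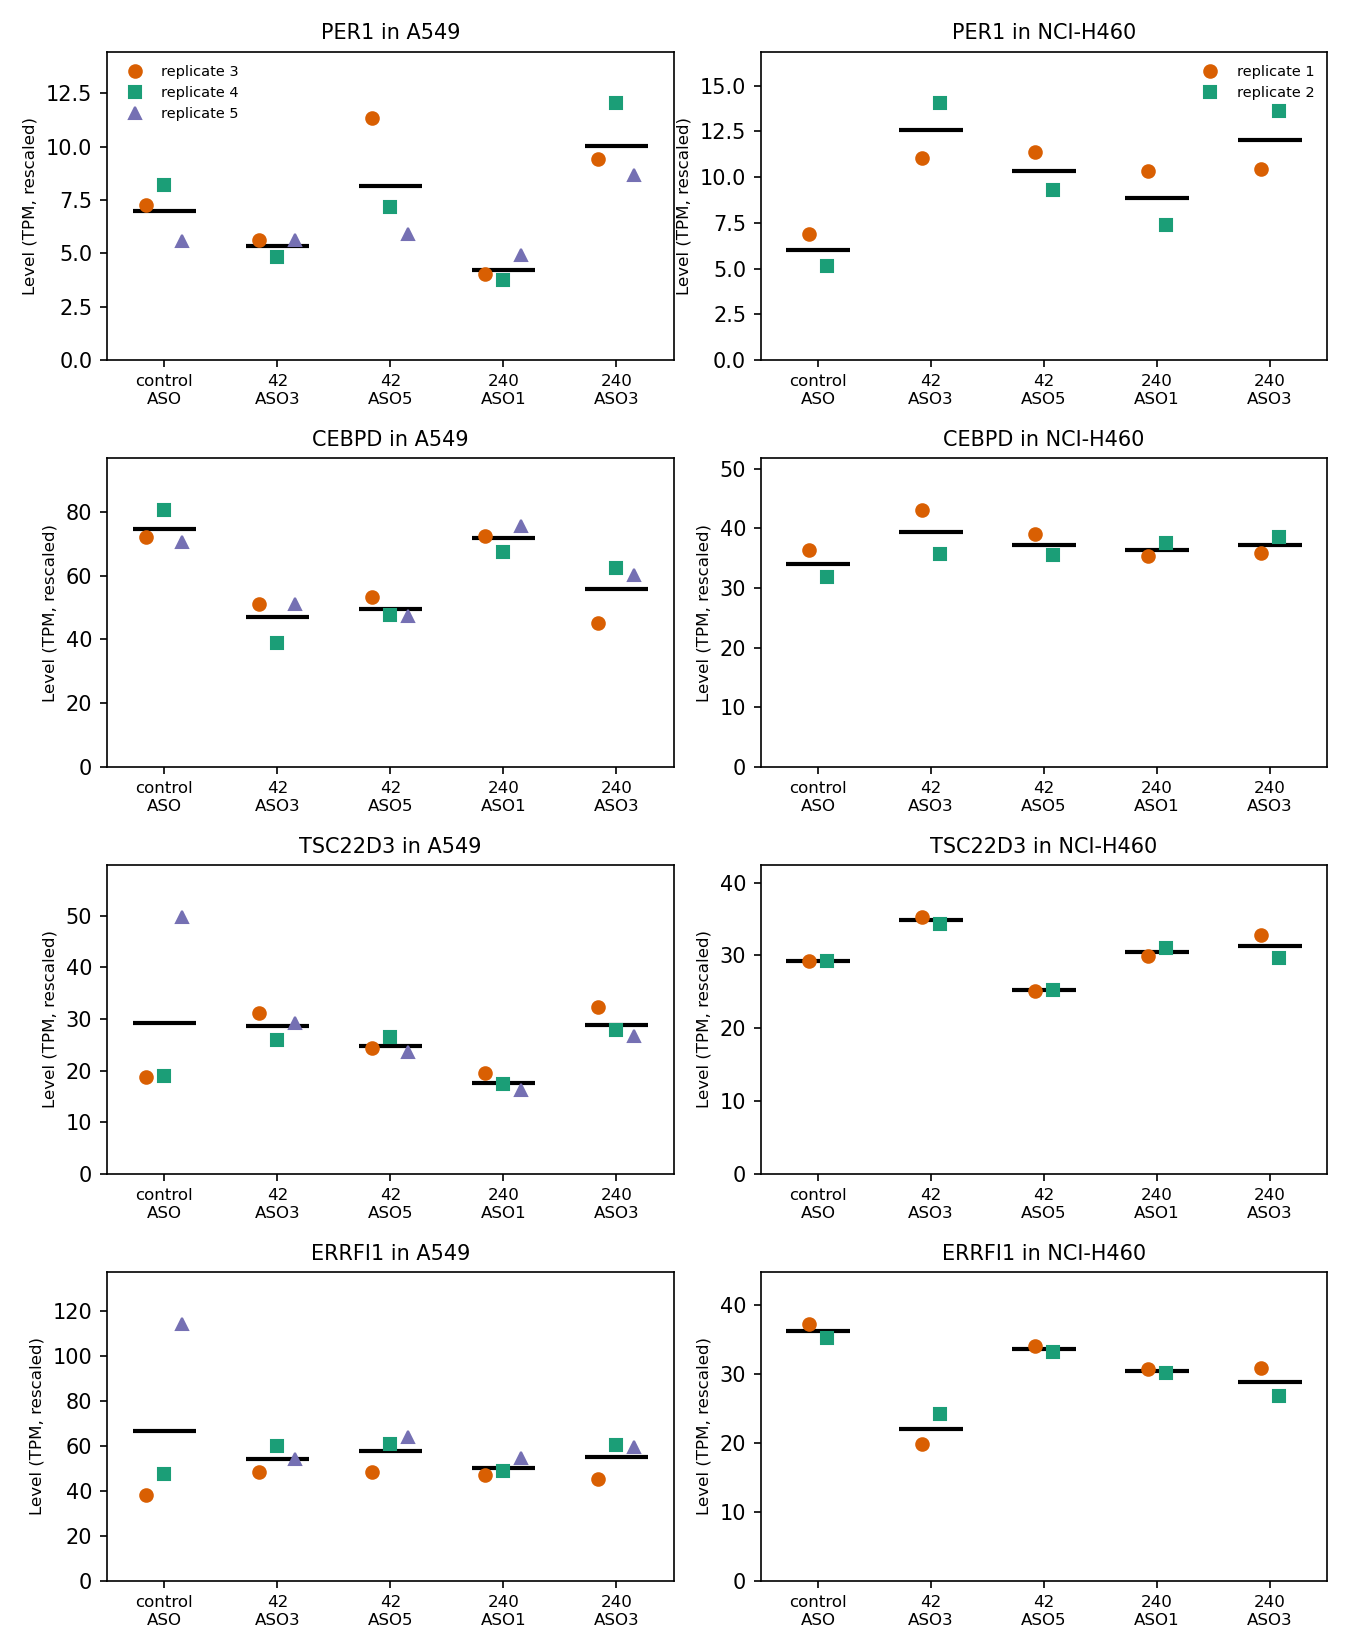
Level in TPM (y axis from 0, separate scale for each panel) of PER1, CEBPD, TSC22D3 and ERRFI1, chosen after their values were seen, in the 5 groups of A549 (left) and NCI-H460 (right). Points are libraries by replicate number and bars are means; A549 control replicate 5 stands apart at 49.9 TPM for TSC22D3 and 114.5 TPM for ERRFI1.

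Under control ASO, 5 of the 10 members were called higher in A549 than in NCI-H460 and 1 lower. Of all genes 54.9% were called (36.4% higher, 18.4% lower), so the members' share was close to that of all genes. Without overlap, 43.8% of all genes were higher in A549 and 24.9% lower. NR3C1 was higher in A549, at 16.1 to 36.4 TPM against 8.66 and 8.86 TPM (1.52, SE 0.32, adjusted p = 0.000556). DUSP1 (1.13, adjusted p = 0.000905), ZFP36 (0.92, adjusted p = 0.000316), CEBPD (1.12, adjusted p = 1.19e-06) and ERRFI1 (0.70, adjusted p = 0.0441) were higher in A549 and SGK1 was lower (-0.45, adjusted p = 0.0131). The median of all genes was itself 0.21 higher in A549 as deposited and 0.00 with median-of-ratios scaling, which moved the share of called genes that were higher from 66.4% to 51.1%. ERRFI1 lost its call without A549 control replicate 5 (0.23, adjusted p = 0.259), without either NCI-H460 control (adjusted p = 0.114 and 0.163) and with median-of-ratios scaling (0.48, adjusted p = 0.139). Without replicate 5, TSC22D3 was lower in A549 (-0.62, adjusted p = 0.000151), against -0.16 (adjusted p = 0.633) with it. SGK1 lost its call without either NCI-H460 control (adjusted p = 0.0556 and 0.0704). FKBP5, lower in all A549 controls (-0.39, adjusted p = 0.0685), was called with median-of-ratios scaling (-0.61, adjusted p = 0.00233) and without A549 control replicate 4 (-0.50, adjusted p = 0.0361).

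Other genes of the pathway were counted from lists of known function, chosen with earlier results of these data known. These counts stand beside the 13.8% of all genes called with candidate 240 ASO3 in A549 and 5.66% in NCI-H460. With candidate 240 ASO3 in A549, 2 of 23 other receptor-induced genes tested were called, both higher: MT1X, a metallothionein (0.99, SE 0.18, adjusted p = 0.00228), and ANGPTL4, a secreted inhibitor of lipoprotein lipase (1.23, SE 0.38, adjusted p = 0.0458). Their list's median was -0.14, beside -0.01 for all genes. In NCI-H460 0 of 20 were called and the median was 0.22, beside -0.03 for all genes. Without overlap, 12 of those 20 were higher and 3 lower, where 28% of all genes were higher and 32.5% lower. MT1X has near-identical family members, so reads may have been split among them. Of the cytokine and inflammatory genes known to be repressed by the receptor, CXCL5, a neutrophil chemokine, was lower in A549 (-0.44, adjusted p = 0.00334), 1 of 10 tested, and IL1A (0.86, adjusted p = 0.0173) and MMP1 (0.82, adjusted p = 0.0446) were higher in NCI-H460, 2 of 11 tested.

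The machinery around the receptor gave 0 of 14 chaperones called with candidate 240 ASO3 in either line. In NCI-H460, however, 11 of the 14 were higher without overlap and 0 lower, where 28% of all genes were higher. Their median there was 0.27, beside -0.03 for all genes. In A549, 1 of the 14 was higher without overlap, and the median was 0.12 beside -0.01. With candidate 42 ASO5 in NCI-H460, against the same controls, 13 of the 14 were higher without overlap (29.1% of all genes). Of 15 coregulators, NCOA1, a steroid receptor coactivator, was lower in both lines (-1.32, adjusted p = 0.00223, and -0.89, adjusted p = 0.0473), and NCOR1, a corepressor, was lower in NCI-H460 (-0.64, adjusted p = 0.0102). NR3C2, the mineralocorticoid receptor, which binds the same hormones, was at most 0.211 TPM in any library. Of these calls, MT1X, CXCL5 and NCOA1 in A549 held in 14 of 15 alternatives each, and ANGPTL4 in 6 of 15. In NCI-H460, NCOR1 held in 10 of 13, IL1A in 7 of 12, MMP1 in 5 of 12 and NCOA1 in 3 of 12. ANGPTL4 was lost without candidate 240 ASO3 replicate 3 in A549 (adjusted p = 0.144).

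With candidate 42 ASO3 in NCI-H460, of 15 coregulators 10 fell and 2 rose. Those that fell most clearly were NCOA3 (-1.55, adjusted p = 0.000247), NCOR1 (-0.92, adjusted p = 0.000311), CREBBP (-1.65, adjusted p = 0.000619), NRIP1 (-1.64, adjusted p = 0.00062), NCOA2 (-1.53, adjusted p = 0.000875) and NCOA1 (-1.33, adjusted p = 0.00158), and the list's median was -0.66 beside -0.20 for all genes. Of 20 other receptor-induced genes, 6 rose, among them MT1X (1.05, adjusted p = 0.000263) and NFKBIA, the NF-kB inhibitor (0.43, adjusted p = 0.00381), and 5 fell, among them PDK4 (-1.52, adjusted p = 0.000366) and IRS2 (-1.34, adjusted p = 0.00117). Of 14 chaperones 4 rose, FKBP4, CDC37, STIP1 and STUB1 (0.38 to 0.55). These counts stand beside 46% of all genes called. Of 11 inflammatory genes CXCL5 fell (-0.90, adjusted p = 0.000914) and CXCL2 and IL1A rose, IL1A in only 4 of 12 alternatives. H6PD, an enzyme that supplies cofactor for cortisol activation, fell (-0.90, adjusted p = 0.00111). In A549 with the same ASO, 2 chaperones rose, FKBP4 (0.53, adjusted p = 0.0189) and HSP90AA1 (0.47, adjusted p = 0.0352), and 0 of 15 coregulators were called, beside 10.1% of all genes. FKBP4 kept its call in 11 of 15 alternatives, losing it without candidate 42 ASO3 replicate 3 or 5 or control replicate 5 (adjusted p = 0.0599 to 0.0728). HSP90AA1 kept its call in 7 of 15, losing it with 3 changes of filter or scaling, with the compared groups alone and without candidate 42 ASO3 replicate 4 or 5 or control replicate 3 or 5 (adjusted p = 0.078 to 0.135). CCL2, a monocyte chemokine, fell (-1.32, adjusted p = 0.00127), as did H6PD (-0.81, adjusted p = 0.0125), and CXCL8 rose (1.03, adjusted p = 0.011). H6PD lost its call without control replicate 4 or 5 (adjusted p = 0.0527 and 0.0557) and CXCL8 without control replicate 4 (adjusted p = 0.051). With candidate 42 ASO5 no listed gene was called in A549, and CXCL2 (0.73, adjusted p = 0.0215) and CXCL3 (0.87, adjusted p = 0.0461), close copies of each other, were higher in NCI-H460; both calls were lost when any 1 of the 4 libraries was left out (adjusted p = 0.153 to 0.344). With candidate 240 ASO1 no listed gene was called in either line.

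Over all 25 libraries, after the mean of each line was subtracted, the genes most like NR3C1 among 12760 were PRPF4B (Pearson r = 0.98), FBXL4 (0.98), CAP2 (0.98), RYK (0.97) and POGLUT3 (0.97). The libraries share their controls and 5 of them carry candidate 240 ASO3, whose NR3C1 values chose the set. These values are therefore a description, and whether the targets follow NR3C1 is not read from them. Among the targets FKBP5 ranked highest, at 2358 (0.46), ERRFI1 stood at 4348 (0.29) and PER1 lowest, at 12073 (-0.64).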

How the data were processed

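The labels describe RNA sequencing of 25 libraries. The submitters' processing notes name hg38, kallisto and sleuth 0.30; for strand handling and the annotation release, the sources used here give nothing. The authors deposited a signal per gene name, TPM for 59427 names. Column sums run from 924350 to 1179224, so the deposited TPM had been rescaled between libraries and depth is unknown; no counting interval can be given. The authors also deposited 8 tables of log2 fold changes and q-values against control, per the file headers, quoted only where named.

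Values were taken as log2(TPM + 0.5). Tests covered genes whose average in the line reached 1 TPM (A549, 14740 genes; NCI-H460, 13774), and 14769 genes over all libraries for comparisons between lines. limma 3.58.1 in R 4.3.3 fitted a mean per group to all 5 groups of a line (10 and 5 residual degrees of freedom; 15 for all libraries), with eBayes and a trend; tests were two-sided over 17 comparisons. The fit was checked on simulated data whose libraries varied independently. They held no effect of replicate number, so that check does not cover one. Sequences came from RefSeq and motifs were searched with Python 3.11.15.

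All members were described in every comparison, and from the other lists the called genes, at most 6 a list and comparison. The members and lists were chosen with earlier results of these data known, and no set test was run. Some listed genes are not reported here. Samples were grouped by their titles. By the correlation of their deviations, replicate numbers pair A549 libraries for candidate 240 ASO3 against control (same-number correlations 0.28 to 0.56) and against ASO1 (0.24 to 0.48). There each library was most like the one with its own number. Pairing was weaker for ASO1 against control (0.17 to 0.41) and candidate 42 ASO5 against ASO3 (0.13 to 0.41), where not every library was. Candidate 42 ASO3 (0.09 to 0.39) and ASO5 (0.02 to 0.32) against control were not taken as paired. Alternatives were other pseudocounts, filters and scalings, no trend, the compared groups alone, a replicate block and leaving out each library.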

Additional observations from a re-analysis of the deposited data

Results flagged for a closer look

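The responses of PER1 (-1.35), SGK1 (0.81) and CEBPD (-0.87) to candidate 42 ASO3 differed between A549 and NCI-H460, as log2 differences with NCI-H460 subtracted from A549, by a test of the difference itself (limma interaction, adjusted p = 0.0134, 0.0144 and 0.00868). PER1 rose in NCI-H460, and SGK1 rose and CEBPD fell in A549. The candidate 42 ASO3 libraries of NCI-H460 stood apart on the first principal component (72.2 and 38.7, the other 8 at most 3.1); without the first of them, replicate 1, the differences were -1.52, 0.72 and -0.74 for PER1, SGK1 and CEBPD and none was called (adjusted p = 0.0509, 0.107 and 0.0861). Without NCI-H460 control replicate 2 they were -1.15, 0.80 and -0.78, also not called (adjusted p = 0.0731, 0.0575 and 0.0526). SGK1 further lost its call with median-of-ratios scaling (0.55, adjusted p = 0.0913).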

How the results depend on the processing

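Of 252 recomputed counts of members called, 213 stayed within 1.5 times the reported count and 39 did not. Of the members' fold changes, 70 recomputed calls were lost and 27 gained, and no called value changed sign; sign changes of values never called were not counted. Without a filter, members called went from 1 to 0 with candidate 42 ASO5 in A549, from 1 to 0 with candidate 240 ASO3 in NCI-H460 and from 5 to 3 for candidate 42 ASO5 against ASO3 in NCI-H460. With each library at the same sum the first 2 of these also went to 0. With no trend, and with the replicate block, candidate 240 ASO3 in NCI-H460 went to 0. With the compared groups alone, candidate 42 ASO5 in A549 and candidate 240 ASO3 in NCI-H460 went to 0, candidate 42 ASO5 against ASO3 in NCI-H460 to 2 and candidate 240 ASO3 against ASO1 in A549 to 2. Candidate 240 ASO3 in A549 went from 0 to 1 with a filter at 5 TPM, with median-of-ratios scaling and with the replicate block (CEBPD, adjusted p = 0.0495, 0.0456 and 0.0365). The block also gave 2 for candidate 240 ASO3 against ASO1 in A549 and 7 in place of 3 for the line difference with candidate 42 ASO3, adding NR3C1, FKBP5, KLF9 and ZFP36 (adjusted p = 0.00439, 0.0244, 0.0421 and 0.0225). The block changed further single calls only in NCI-H460, where 2 pairs do not fix a pairing: TSC22D3 (adjusted p = 0.0588) and DUSP1 (0.012) with candidate 42 ASO3, and KLF9 (0.0555) and DUSP1 (0.0438) for candidate 42 ASO5 against ASO3. With each library at the same sum, the share of called genes that were higher went from 46.8% to 34.1% for candidate 240 ASO3 in NCI-H460, and for its line difference from 32.4% to 46.5%. Apart from fewer samples or another set of genes tested, the cause was not tested.

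Leaving out each library in turn gave 2 to 3 members with candidate 42 ASO3 in A549, 0 with candidate 42 ASO5, 0 to 1 with candidate 240 ASO3, 0 to 2 for candidate 42 ASO5 against ASO3 and 1 for candidate 240 ASO3 against ASO1. In NCI-H460 it gave 3 to 8, 0 and 3 to 6 for candidate 42 ASO3, candidate 240 ASO3 and candidate 42 ASO5 against ASO3, and 0 to 5 for the line difference with candidate 42 ASO3 and 4 to 7 between lines under control.

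Counts over all genes moved by more than 1.5 times as follows. With the block, the A549 counts went from 1482 to 3112 (candidate 42 ASO3), 563 to 1533 (candidate 42 ASO5), 2036 to 3696 (candidate 240 ASO3), 1570 to 3152 (candidate 42 ASO5 against ASO3) and 2465 to 4411 (candidate 240 ASO3 against ASO1), and with the compared groups alone to 762, 119, 665 and, for the last, 1271. In NCI-H460 candidate 240 ASO3 went from 780 to 373 without a filter, candidate 42 ASO3 from 6332 to 4088 and candidate 42 ASO5 against ASO3 from 4588 to 1922 with the compared groups alone, candidate 240 ASO3 against ASO1 from 402 to 215 without a filter and 253 with the groups alone, and candidate 42 ASO5 from 70 to 42 with equal sums and 25 with no trend. The line difference with candidate 42 ASO3 went from 2909 to 1681 without a filter and 5638 with the block, and that with candidate 240 ASO3 from 179 to 291, 109 (5 TPM) and 535. Leaving out 1 library moved the A549 counts at the lowest to 832 (candidate 42 ASO3), 207 (candidate 42 ASO5), 908 (candidate 42 ASO5 against ASO3) and 1585 (candidate 240 ASO3 against ASO1). In NCI-H460 the lowest were 3698 (candidate 42 ASO3), 76 (candidate 240 ASO3), 1980 (candidate 42 ASO5 against ASO3), 52 (candidate 240 ASO3 against ASO1) and 0 (candidate 42 ASO5, without any 1 library). The line difference went to 275 with candidate 42 ASO3 and to between 47 and 269 with candidate 240 ASO3. Smaller counts moved for candidate 240 ASO1 without a filter (0 to 5 in A549, 0 to 44 in NCI-H460, 0 to 34 for the line difference; 2 in NCI-H460 without control replicate 2) and for the line difference with candidate 42 ASO5 (5 to 87 without a filter, 39 with the block, 1 to 7 without 1 library).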
